A study of Mus musculus with 14 samples.

Results

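The enzymes described here remove superoxide and peroxides from the cell: the superoxide dismutases Sod1 and Sod2, the catalase Cat, the glutathione peroxidases Gpx1, Gpx2 and Gpx4, and the peroxiredoxins Prdx3, Prdx4 and Prdx6. Glrx5, a mitochondrial glutaredoxin of iron-sulfur cluster assembly, was listed with them and is counted with the enzymes below. They were taken by gene symbol from the 24675 genes with a named row in the table of array values. Of these 10 genes 9 had such a row, all 9 passed the filter on low values, and Prdx6 was not analysed here.

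Superoxide dismutases turn superoxide into hydrogen peroxide, Sod1 mostly in the cytosol and Sod2 in the mitochondrial matrix. Catalase breaks hydrogen peroxide down in peroxisomes. Glutathione peroxidases reduce peroxides with glutathione, and most peroxiredoxins with electrons from thioredoxin. Gpx2 is the glutathione peroxidase typical of the gut epithelium, Gpx4 reduces lipid peroxides in membranes, Prdx3 works in mitochondria and Prdx4 in the endoplasmic reticulum. Autophagy, which needs Atg7 to conjugate LC3 to lipid, clears damaged mitochondria, a main source of superoxide, and takes up peroxisomes and ferritin.

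Sorted mouse intestinal crypt cells were profiled with Affymetrix Mouse Gene 2.0 ST arrays, 14 in all, 1 for each sorted sample of an individual mouse. Wild-type (WT) mice carried Lgr5-EGFP-IRES-CreERT2, and Atg7KO mice carried it together with Atg7(fl/fl). Both genotypes were given tamoxifen for 5 days in a row, with death 1 month afterwards, and the Cre is driven from Lgr5, so that recombination starts in Lgr5-expressing cells. Among CD24 low cells, those with high EGFP are labelled intestinal stem cells and those with low EGFP transit amplifying cells. There were 4 WT-Low, 4 Atg7KO-Low, 3 WT-High and 3 Atg7KO-High samples, and the input to amplification was 1 ng of total RNA. The age of the mice is not given in the sources used here. Samples carry their title's number after the group, as in WT-Low-411.

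The labels were checked against Lgr5 and Atg7, and Lgr5 followed the gates. Lgr5 read 9.02 ± 0.31 (SD, n = 3) in WT-High and 5.50 ± 0.67 (SD, n = 4) in WT-Low cells, and 9.11 ± 0.12 and 5.79 ± 0.52 in the corresponding knockout groups. Atg7 read 5.89 ± 0.20 in Atg7KO-Low against 6.91 ± 0.43 in WT-Low cells (n = 4 each), and 6.14 ± 0.23 in Atg7KO-High against 6.79 ± 0.04 in WT-High cells (n = 3 each). Its arrays did not overlap by genotype within either gate, though limma did not call it over all genes (adjusted p = 0.166 and 0.208), and the probe set may read exons outside the deleted part. The mean level of 10 leukocyte markers lay between 4.23 and 4.76 on the 14 arrays, near the array medians, which reached 4.49. Goblet cell markers differed between the gates. The mean of 11 was 10.6 to 11.3 in EGFP low samples, 9.25 to 9.80 in WT-High and 7.79 to 9.55 in Atg7KO-High samples. Goblet cell marker RNA was thus present in both gates and higher in EGFP low samples. The mean of 10 Paneth cell markers overlapped between the gates. It was 9.61 to 10.6 in WT-Low and 9.06 to 9.85 in WT-High samples. In Atg7KO-Low samples it was 8.88 to 9.92 and in Atg7KO-High samples 7.84 to 9.17. Markers of transit amplifying cells were not examined. In sorted bulk cells, a different share of a cell type and a different amount of RNA per cell cannot be told apart.

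The 250 bases before the annotated start of 4 of the genes are shown because the results below turn on Sod2, Prdx4 and Glrx5, and because Sod1 held the only match to the antioxidant response element, the site bound by NRF2. The sequences are RefSeq's for GRCm38.p6, written 5′ to 3′ on the gene's strand, and capitals mark a motif match.
Sod1, chr16:90220512-90220761, plus strand: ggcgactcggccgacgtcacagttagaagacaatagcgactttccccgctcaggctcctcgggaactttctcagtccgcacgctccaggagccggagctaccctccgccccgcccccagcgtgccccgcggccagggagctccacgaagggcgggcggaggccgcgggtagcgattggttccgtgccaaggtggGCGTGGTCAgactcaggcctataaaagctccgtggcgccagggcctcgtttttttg
Sod2, chr17:13007589-13007838, plus strand: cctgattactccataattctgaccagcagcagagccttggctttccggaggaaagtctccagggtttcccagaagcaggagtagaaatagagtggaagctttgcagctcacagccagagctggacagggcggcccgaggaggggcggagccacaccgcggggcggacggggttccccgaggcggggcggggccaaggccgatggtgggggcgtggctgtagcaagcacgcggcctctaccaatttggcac
Prdx4, chrX:155338461-155338710, minus strand: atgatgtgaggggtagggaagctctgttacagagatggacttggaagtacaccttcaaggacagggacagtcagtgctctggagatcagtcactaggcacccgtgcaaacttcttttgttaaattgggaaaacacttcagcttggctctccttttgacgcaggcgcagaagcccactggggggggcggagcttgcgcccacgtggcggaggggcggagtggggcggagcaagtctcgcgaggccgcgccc
Glrx5, chr12:105032368-105032617, plus strand: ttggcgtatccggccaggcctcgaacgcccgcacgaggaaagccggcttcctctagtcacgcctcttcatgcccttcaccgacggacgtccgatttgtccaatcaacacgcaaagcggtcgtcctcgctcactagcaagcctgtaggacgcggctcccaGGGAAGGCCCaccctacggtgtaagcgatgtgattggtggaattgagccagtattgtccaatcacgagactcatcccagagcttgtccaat

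The element was searched as TGACNNNGC and an NF-kB motif as GGGA, any 4 bases and CC, on both strands, in windows of 250 bases. All 9 genes had a window, and Gpx4 had several, which gave 12. The antioxidant response element matched in 1 of them, that of Sod1, where the capitals show its reverse complement, with the first base at -56 from the start, against 10.2% of the 32851 windows of all genes. The NF-kB motif matched in 1 window each of Cat, Gpx1, Gpx4, Prdx3 and Glrx5, the last with its first base at -91, against 17.6% of all windows. The windows of Sod2, Prdx4 and Gpx2 held neither motif, which says only that these letters are not there.

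In EGFP low cells, labelled transit amplifying, the question was how these enzymes differ with loss of Atg7. Glrx5 and Prdx4 were the 2 enzymes whose knockout arrays all lay above the wild-type arrays. No enzyme was called by limma over all 15873 genes at adjusted p under 0.05, where the share called among all genes was 0.0063%. Arrays of the 2 genotypes did not overlap for 3.4% of all genes in this gate, and 1.71% of all genes were without overlap and higher in the knockout. An unadjusted p under 0.05 was found for 3 of the 9, Gpx1, Prdx4 and Glrx5, against 7.26% of all genes. The genes were chosen with earlier results of these data known, so that counts beside these shares describe the list and test nothing.

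Glrx5 passes iron-sulfur clusters on to mitochondrial and cytosolic proteins. Its log2 level in Atg7KO-Low cells was 9.01 in Atg7KO-Low-356, 9.11 in Atg7KO-Low-353, 9.22 in Atg7KO-Low-387 and 8.99 in Atg7KO-Low-386. In wild type it was 8.54 in WT-Low-341, 8.43 in WT-Low-407, 8.52 in WT-Low-409 and 8.13 in WT-Low-411. The knockout samples lay close together, and the gap to the highest wild-type sample was wider than their whole range. Knockout exceeded wild type by 0.68 (SE 0.18, 95% interval 0.30 to 1.05), with unadjusted p = 0.00163 and limma adjusted p = 0.476. The difference was 0.59 without WT-Low-411, the lowest wild-type sample, and 0.59 to 0.72 over all 14 ways of leaving out 1 array.

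Prdx4, which reduces peroxide made during disulfide bond formation in the endoplasmic reticulum, read 7.16 in Atg7KO-Low-356, 7.48 in Atg7KO-Low-353, 7.87 in Atg7KO-Low-387 and 7.04 in Atg7KO-Low-386. The wild-type samples read 6.81 in WT-Low-341, 6.90 in WT-Low-407, 6.35 in WT-Low-409 and 6.77 in WT-Low-411. The lowest knockout value stood just above the highest wild-type one, while Atg7KO-Low-387 and Atg7KO-Low-353 were higher than the rest. The difference was 0.68 (SE 0.20, unadjusted p = 0.00361, limma adjusted p = 0.495), and it was 0.52 without Atg7KO-Low-387 and 0.80 without Atg7KO-Low-386.

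Gpx1, the most widespread glutathione peroxidase of the cytosol and mitochondria, read 11.63 in Atg7KO-Low-356, 11.35 in Atg7KO-Low-353, 11.54 in Atg7KO-Low-387 and 11.50 in Atg7KO-Low-386. WT-Low-341 and WT-Low-407 read 11.39 each, WT-Low-409 read 11.14 and WT-Low-411 read 11.02. Atg7KO-Low-353 lay among the wild-type values, and the difference of 0.27 (SE 0.12) had limma adjusted p = 0.688. Prdx3, the mitochondrial peroxiredoxin, read 8.68 to 9.18 in the knockout and 8.48 to 8.96 in wild type apart from WT-Low-411, which stood at 7.61. Its difference was 0.46 (SE 0.26, limma adjusted p = 0.755), and 0.18 without WT-Low-411.

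Sample WT-Low-411 was also the lowest of the 14 for catalase, at 7.49, and for Gpx2, at 3.54. The other 3 wild-type EGFP low samples read 8.69 to 9.02 for Cat, and the knockout samples 8.35 to 9.16, so that the knockout difference was 0.12 with that sample and -0.23 without it. For Gpx2 the knockout samples ran from 4.40 to 6.02 and the other wild-type samples from 5.13 to 5.77, and the difference was 0.20 with and -0.25 without WT-Low-411. That sample had a narrow spread of all its values, an SD of 1.90 where the remaining EGFP low arrays had 1.98 to 2.06. Its mean of 10 Paneth cell markers was the highest, 10.6 against 9.61 to 10.5 in the rest of WT-Low. Its means of 7 epithelial markers, 9.87, and 14 Lgr5 stem cell markers, 7.06, were the lowest of all 14 arrays. Paneth cell markers had lower values in the knockout of this gate for 10 of 10, with 0 called and a median of -0.68. The difference of Cat in this gate was -0.0025, and that of Gpx2 0.024, once the array SD entered as a covariate. The part of the Paneth, epithelial and Lgr5 stem cell markers in the enzyme values was not tested. Differences of Sod1 (0.11), Sod2 (-0.16) and Gpx4 (0.0046) in this gate had 95% intervals of -0.26 to 0.48, -0.57 to 0.26 and -0.42 to 0.43. Over the 9 enzymes 8 were higher in the knockout and the median difference was 0.20, where the median of all genes was 0.0019. The median was 0.10 without Atg7KO-Low-356 and ran up to 0.28 with another array left out, and the 8 include Gpx4 near 0 and Cat and Gpx2, whose signs turned without Atg7KO-Low-356 or WT-Low-411.

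**Figure D1:**
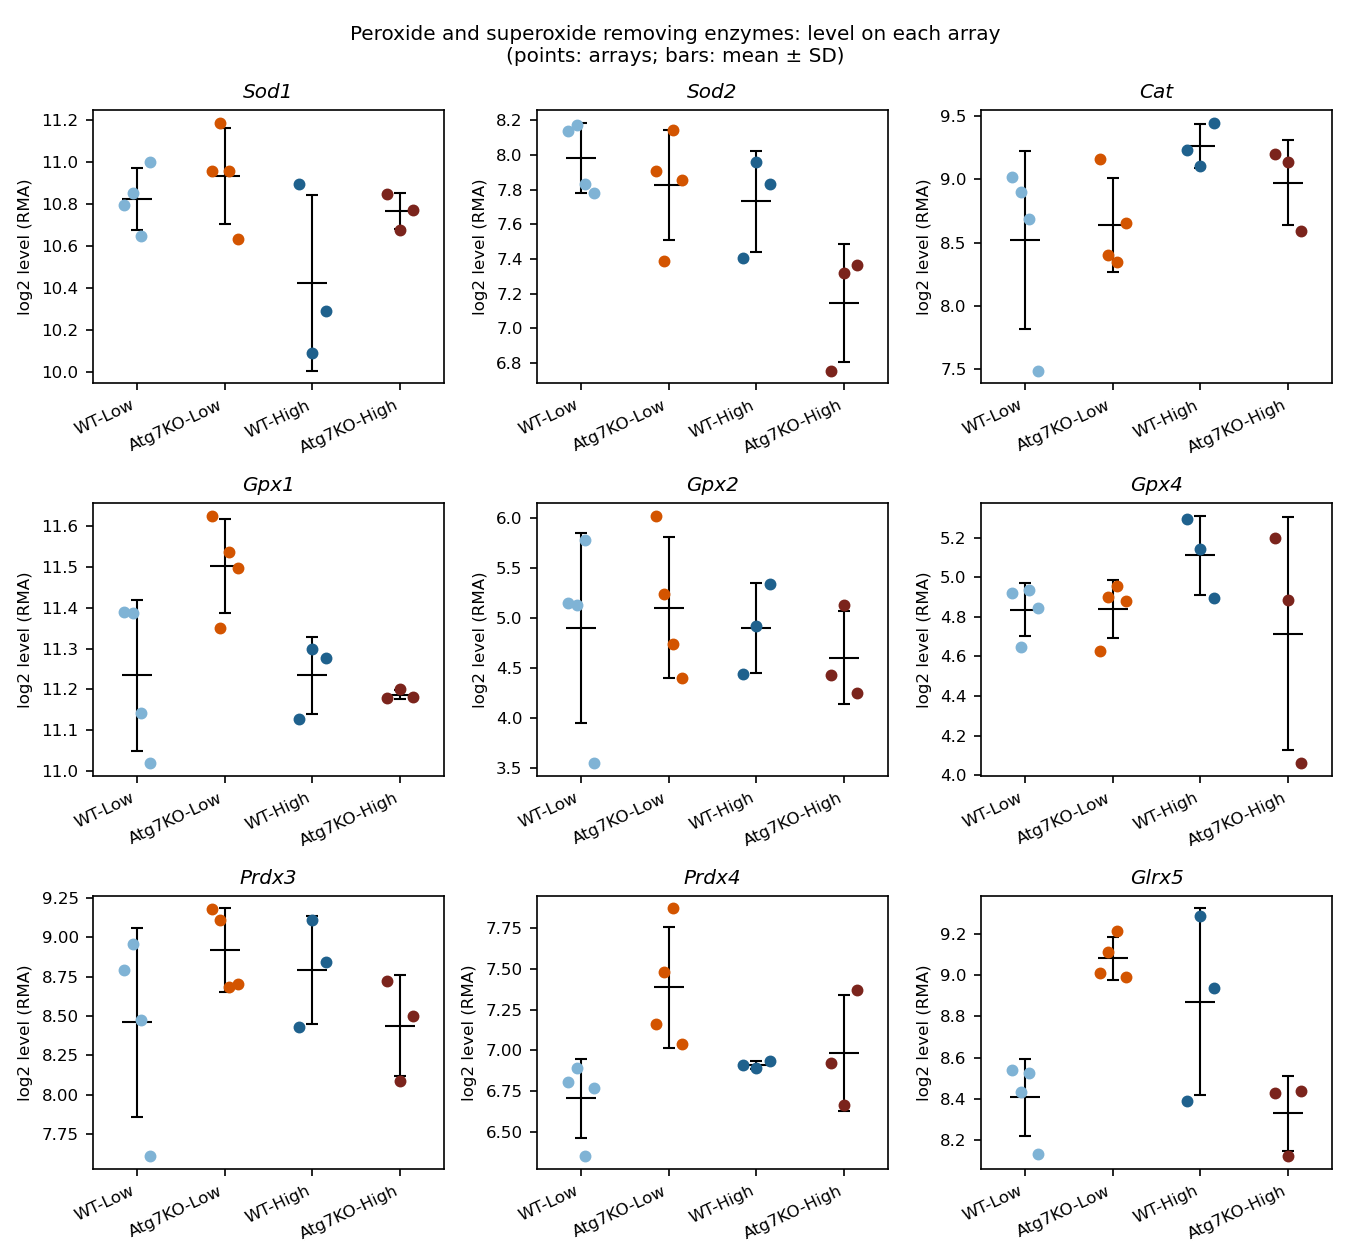
Log2 level (RMA, y axis) of the 9 enzymes on each of the 14 arrays, by group (x axis); points are arrays, and bars give mean and SD of 4 EGFP low or 3 EGFP high arrays. For Glrx5 the 4 Atg7KO-Low arrays sit between 8.99 and 9.22, above all WT-Low arrays, and for Cat and Prdx3 the array WT-Low-411 lies far below the rest of its group.

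In EGFP high cells, the same question asks what loss of Atg7 does in the stem cell gate. Sod2 was the 1 enzyme whose arrays did not overlap between genotypes. In this gate arrays did not overlap for 25.3% of all genes, with 15.2% of all genes lower in the knockout, so that 1 of 9 is not above that share. No enzyme was called by limma, against 0.0126% of all genes, and 2 of 9, Sod2 and Glrx5, had an unadjusted p under 0.05, against 15.9% of all genes.

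Sod2 read 7.37 in Atg7KO-High-386, 6.76 in Atg7KO-High-356 and 7.32 in Atg7KO-High-348. In wild type it read 7.40 in WT-High-388, 7.96 in WT-High-411 and 7.83 in WT-High-412. The groups were separated by a narrow step between Atg7KO-High-386 and WT-High-388. The difference was -0.58 (SE 0.23, 95% interval -1.07 to -0.10, limma adjusted p = 0.245), and -0.39 without Atg7KO-High-356. That sample had the narrowest spread of values, an SD of 1.90, and the lowest mean goblet marker level, 7.79. The Sod2 difference was -0.29 with the array SD as a covariate.

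Glrx5 read 8.43 both in Atg7KO-High-356 and in Atg7KO-High-386, 8.12 in Atg7KO-High-348, and 8.39 in WT-High-388, 9.29 in WT-High-411 and 8.94 in WT-High-412. The wild-type samples were spread over almost a whole log2 unit, and WT-High-388 lay among the knockout samples. The difference was -0.54 (SE 0.20, limma adjusted p = 0.233), and -0.34 without WT-High-411. For Sod1 WT-High-388 stood apart from its group, at 10.89 against 10.09 in WT-High-411 and 10.29 in WT-High-412. The knockout samples read 10.68 to 10.85, which gave a difference of 0.34 (SE 0.20, limma adjusted p = 0.416). The mean of 13 enterocyte markers was 9.40 in WT-High-388, 8.24 in WT-High-411 and 8.52 in WT-High-412. WT-High-388 had the highest goblet mean of WT-High, 9.80, and the lowest Paneth (9.06) and enteroendocrine (6.89) means. The part of these markers was not tested.

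Cat, Gpx1, Gpx2, Gpx4, Prdx3 and Prdx4 also overlapped between genotypes in EGFP high cells. Gpx1 read 11.2 in each of the knockout samples, with an SD of 0.01, and 11.1 to 11.3 in wild type. Prdx4 read 6.89 to 6.94 in wild type and 6.66 to 7.37 in the knockout. Gpx4 ran from 4.06 in Atg7KO-High-386 to 5.20 in Atg7KO-High-356 and from 4.90 to 5.29 in wild type. Differences were -0.29 for Cat, -0.05 for Gpx1, -0.30 for Gpx2, -0.40 for Gpx4, -0.36 for Prdx3 and 0.07 for Prdx4, with limma adjusted p from 0.415 to 0.901. Leaving out 1 array moved them toward 0 or past it in some cases. Without Atg7KO-High-386 they were -0.095 for Cat, -0.069 for Gpx4 and -0.12 for Prdx4. Gpx2 was -0.078 without WT-High-412, Prdx3 -0.18 without Atg7KO-High-348 and Gpx1 -0.015 without WT-High-411. Other arrays left out moved them away from 0, to -0.40 for Cat, -0.56 for Gpx2 and -0.64 for Gpx4. Prdx3 moved to -0.54, Prdx4 to 0.23 and Gpx1 to -0.10. The median over the 9 enzymes was -0.30 with 7 lower, beside a median of -0.03 and 53.8% lower among all genes. Some marker lists had lower values in this knockout too: 13 of 13 enterocyte (median -0.52), 11 of 11 goblet (-0.94) and 9 of 10 Paneth cell markers (-0.57). General epithelial markers were lower for 7 of 7 (-0.22). By limma 0 of these were called, and an unadjusted p under 0.05 was found for 3, 6, 5 and 1 of them. Other differentiated types did not shift alike. Of 11 enteroendocrine markers 6 were lower (median -0.0007), and of 4 tested tuft cell markers 2 were (median 0.025). The part of the markers in the enzyme values was not tested. Arrays of this knockout group had narrower spreads, with SDs of 1.90 to 1.98 against 1.99 to 2.06 in WT-High. The enzymes' median was 0.09 once the array SD entered as a covariate. As these SDs did not overlap by genotype, that setting cannot tell array spread and knockout apart in this gate.

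**Figure D2:**
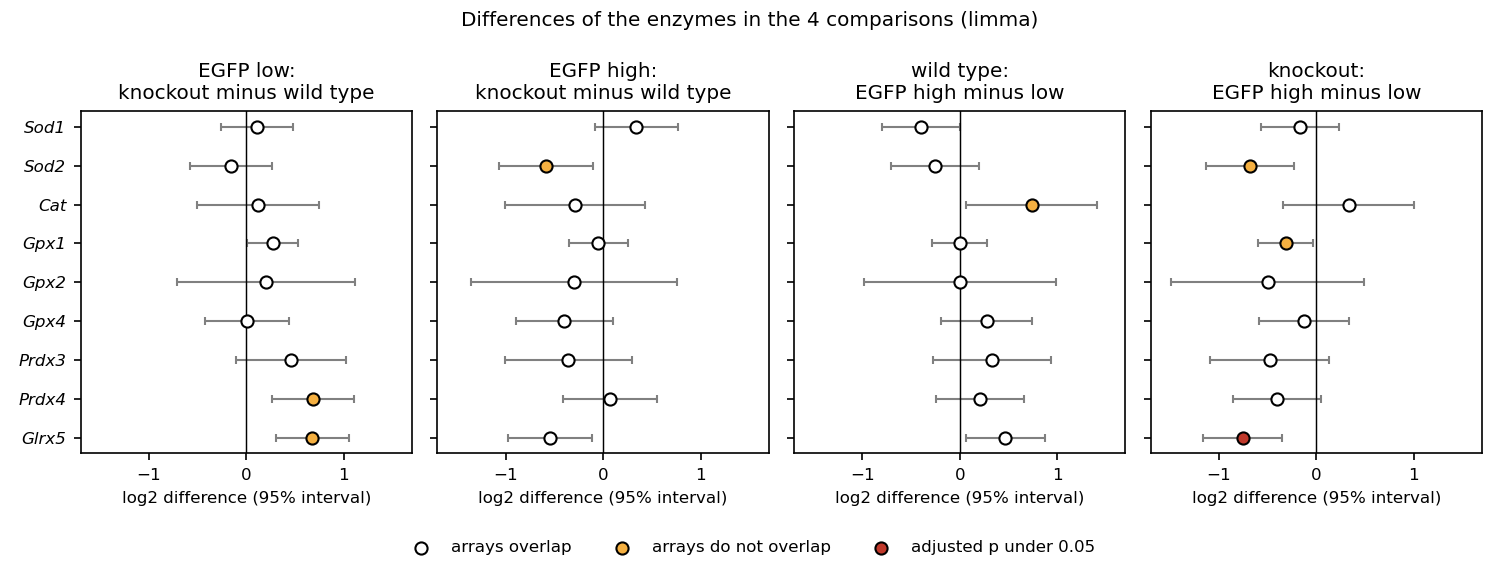
Log2 difference (x axis) with its 95% interval from limma for each enzyme (y axis) in 4 comparisons; orange points have arrays that do not overlap between the 2 groups, and the red point passed adjusted p under 0.05. Glrx5 and Prdx4 lie to the right of 0 in the knockout of EGFP low cells, Sod2 lies to the left in that of EGFP high cells, and the one called difference is that of Glrx5 between the gates of the knockout, at -0.76.

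The gate comparisons set EGFP high against EGFP low samples. They use the same samples as the comparisons above, so they are not independent of them. In wild type 0 of the 9 enzymes were called by limma, against 2.44% of all genes, and 2 had an unadjusted p under 0.05, against 14.8% of all genes. Cat was the 1 enzyme whose arrays did not overlap, against 16.5% of all genes. It read 9.23 in WT-High-388, 9.11 in WT-High-411 and 9.45 in WT-High-412, and 9.02 in WT-Low-341, 8.90 in WT-Low-407, 8.69 in WT-Low-409 and 7.49 in WT-Low-411. All EGFP high samples stood above the EGFP low ones, but the size rested on WT-Low-411. The difference was 0.74 (SE 0.31, limma adjusted p = 0.278), and 0.39 without that sample. In the knockout Cat read 8.59 to 9.20 in EGFP high and 8.35 to 9.16 in EGFP low cells, and the groups overlapped (0.33, SE 0.31).

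In the knockout Glrx5 fell in EGFP high relative to EGFP low cells, by 0.76 on the log2 scale (SE 0.19, 95% interval -1.16 to -0.35, limma adjusted p = 0.0209). It was the 1 gene of the 9 that was called, and none of the superoxide and peroxide removing enzymes proper was. Of all genes 10.9% were called and 6.44% were called lower, so that the count is near the share of all genes. All 3 Atg7KO-High samples, at 8.12 to 8.43, lay below all 4 Atg7KO-Low samples, at 8.99 to 9.22. In wild type the same gate difference was 0.47 (SE 0.19, limma adjusted p = 0.251), with WT-High-411 and WT-High-412 above and WT-High-388 among the EGFP low values. Glrx5 was not called without Atg7KO-Low-387 (adjusted p = 0.0506), Atg7KO-High-356 (0.0524) or Atg7KO-High-348 (0.094), nor after quantile normalization again (-0.53, adjusted p = 0.0607) or with the array SD as a covariate (-0.52, adjusted p = 0.206). It kept a negative difference in each of these.

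Sod2 and Gpx1 were the others without overlap between the gates of the knockout, which made 3 of 9 with Glrx5, all lower in EGFP high cells, against 22.6% of all genes without overlap and 11.8% lower. Sod2 read 6.76 to 7.37 in Atg7KO-High and 7.39 to 8.14 in Atg7KO-Low cells. Its difference of -0.68 (SE 0.21) had limma adjusted p = 0.0528. It was called without Atg7KO-Low-353 (-0.82, adjusted p = 0.0224), WT-Low-411 (adjusted p = 0.0489) or WT-High-388 (0.0496), and with a stricter filter (0.0435) or median centring (0.0451). It was -0.48 without Atg7KO-High-356 (adjusted p = 0.226). Gpx1 read 11.2 in all Atg7KO-High and 11.4 to 11.6 in Atg7KO-Low samples, a difference of -0.32 (SE 0.13, limma adjusted p = 0.141). Over the 9 enzymes 8 had lower values in EGFP high cells of the knockout and the median was -0.40, beside 0.02 over all genes. In wild type 3 had lower values and the median was 0.21, beside 0.03 over all genes. That median was 0.051 without WT-Low-411 and 0.062 with the array SD as a covariate. Cell type markers also differed between the gates, in both genotypes. In the knockout 8 of 13 enterocyte, 11 of 11 goblet and 5 of 10 Paneth markers were called lower in EGFP high cells. So were 8 of 11 enteroendocrine and 2 of 7 epithelial markers. Of all genes 6.44% were called lower. Of 4 tested tuft cell markers 1 was called lower and 1 higher. In wild type 1 of 13 enterocyte, 8 of 11 goblet, 1 of 10 Paneth and 4 of 11 enteroendocrine markers were called lower. There 0 of 7 epithelial and 0 of 4 tuft cell markers were called, beside 2.44% of all genes. The part of the markers in the enzyme values was not tested.

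Whether the knockout effect differed by gate was tested as an interaction. For Glrx5 it was -1.22 (SE 0.27, 95% interval -1.80 to -0.65, unadjusted p = 0.000408), which was not called over all genes (limma adjusted p = 0.176), and 0.0063% of all genes were called. Glrx5 was the 1 enzyme with an unadjusted p under 0.05, against 14% of all genes, and it ranked 35 among the 15873 genes. The genes were chosen with earlier results of these data known, so that this rank is a description only. Without WT-High-411 it was -1.01 (adjusted p = 0.520), and without WT-High-412 it was -1.19. Values for Prdx3 and Prdx4 were -0.81 (SE 0.40) and -0.61 (SE 0.30), both with limma adjusted p = 0.374. Of the 9 enzymes 8 had a negative value and the median was -0.43, beside -0.03 over all genes, and it was -0.24 without the narrowest array of each gate, Atg7KO-High-356 and WT-Low-411. The interaction was also negative for 13 of 13 enterocyte markers (median -0.74), 11 of 11 goblet (-0.53), 9 of 10 Paneth (-0.30) and 7 of 7 epithelial markers (-0.31). It was negative for 7 of 11 enteroendocrine markers (-0.19) and for 1 of 4 tested tuft cell markers (0.40). By limma 0 of these markers were called, and their part in the enzyme values was not tested. For Sod1 the value was 0.23 (SE 0.26).

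Ordered by group mean, Glrx5 was highest in Atg7KO-Low (9.08 ± 0.10, SD, n = 4), followed by WT-High (8.87 ± 0.45, n = 3), WT-Low (8.41 ± 0.19, n = 4) and Atg7KO-High (8.33 ± 0.18, n = 3). Each group overlapped with its neighbour in this order. Sod2 went from WT-Low (7.98 ± 0.20) over Atg7KO-Low (7.82 ± 0.32) and WT-High (7.73 ± 0.29) to Atg7KO-High (7.15 ± 0.34), and of these neighbours WT-High and Atg7KO-High alone did not overlap. Catalase went from WT-High (9.26 ± 0.17) over Atg7KO-High (8.97 ± 0.33) and Atg7KO-Low (8.64 ± 0.37) to WT-Low (8.52 ± 0.70), with overlap between all neighbours. Prdx4 was highest in Atg7KO-Low (7.39 ± 0.37) and lowest in WT-Low (6.71 ± 0.24), with Atg7KO-High (6.99 ± 0.36) and WT-High (6.91 ± 0.02) between, and Gpx1 was highest in Atg7KO-Low (11.5 ± 0.12), with the other group means at 11.2.

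The enzymes differed in how far arrays of a group spread. The pooled SD within groups was 0.13 for Gpx1 and 0.24 and 0.25 for Sod1 and Glrx5, and 0.71 for Gpx2, whose 95% intervals were the widest. Gpx2 lay at or above the filter's threshold, the 40th percentile of an array, on 13 arrays and the other 8 enzymes on all 14. Gpx2 and Gpx4, at 3.54 to 6.02 and 4.06 to 5.29, lay close to the array medians, where an array separates levels least. The platform also lists a processed copy, Gpx2-ps1, and probes of Gpx2 could read both.

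The 3 enzymes with the widest range of group means were Sod2, Glrx5 and Cat, and for each the 3 genes with the closest pattern were taken, by the mean absolute difference of centred log2 values over the 14 arrays. For Glrx5 these were Tomm22, a receptor of the mitochondrial import complex, Gipc1 and Trir, at 0.154, 0.157 and 0.160. Tomm22 had group means of 9.86 in Atg7KO-Low, 9.39 in WT-Low, 9.46 in WT-High and 9.33 in Atg7KO-High. For Sod2 they were Alkbh5, an RNA demethylase, Pdlim1 and Snx4, at 0.129, 0.131 and 0.134. For Cat they were Chmp4c, Oat, the mitochondrial ornithine aminotransferase, and Mtus1, at 0.154, 0.163 and 0.175.

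Genes that work with these enzymes were counted in the same fit. Of 6 tested other superoxide dismutase, glutathione peroxidase and peroxiredoxin genes, 0 were called by limma in either genotype comparison, and an unadjusted p under 0.05 was found for 1 in the EGFP low gate and 0 in the EGFP high gate. Their median was 0.32 for the EGFP low and -0.15 for the EGFP high gate. Prdx1, the main cytosolic peroxiredoxin, had a difference of 0.36 (SE 0.19) in the former and -0.33 (SE 0.22) in the latter, and Ccs, the copper chaperone of Sod1, had 0.51 (SE 0.24) and -0.49 (SE 0.27). The interaction was negative for 6 of 6, with 0 called.

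Of 16 thioredoxin and glutaredoxin system genes and 10 glutathione and NADPH supply genes, 0 were called between genotypes in either gate. An unadjusted p under 0.05 was found for 3 genes of each list in EGFP high and 1 of each in EGFP low cells. In EGFP high cells their medians were -0.34 and -0.47, and 12 of 16 and 10 of 10 had lower values in the knockout. The smallest p-values were those of Idh1, which makes cytosolic NADPH (-1.12, SE 0.23), and Txnrd1, the cytosolic thioredoxin reductase (-0.66, SE 0.14), both with limma adjusted p = 0.131. Idh1 read 7.42 ± 0.20 in Atg7KO-High and 8.54 ± 0.18 in WT-High cells, and Txnrd1 7.59 ± 0.14 and 8.25 ± 0.08 (SD, n = 3 each). In EGFP low cells the medians were 0.05 and 0.16. Between the gates of the knockout both genes passed the test: Idh1 fell by 1.53 in EGFP high cells (limma adjusted p = 0.000954) and Txnrd1 fell by 0.56 (limma adjusted p = 0.0159). There 1 of the 16 thioredoxin and glutaredoxin system genes and 3 of the 10 supply genes were called, all lower. Of all genes 10.9% were called and 6.44% were called lower.

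Iron-sulfur cluster assembly genes, the process Glrx5 serves, had a median of 0.32 in EGFP low cells, with 9 of 11 tested higher in the knockout, and -0.20 in EGFP high cells, with 8 of 11 lower. By limma 0 were called in either, and 2 had an unadjusted p under 0.05 in each. Isca1, which takes up clusters late in the pathway, had a difference of 0.43 (SE 0.17) in EGFP low cells, and Iscu, the scaffold on which clusters are built, one of -0.59 (SE 0.26) in EGFP high cells. Between the gates of the knockout Isca1 and Iscu were the 2 called of 11, and they fell in EGFP high cells by 0.72 and 0.81 (limma adjusted p = 0.0217 and 0.0494). Of all genes 10.9% were called in that comparison and 6.44% were called lower. Of 10 tested selenoprotein synthesis genes, needed to make the glutathione peroxidases, and 14 peroxisome biogenesis genes, 0 were called between genotypes, with medians between -0.09 and 0.09. An unadjusted p under 0.05 was found in EGFP high cells for 1 of each list, and in EGFP low cells for 0 of the selenoprotein and 2 of the peroxisome genes, of which 1 was higher and 1 lower. Counts of this kind for the related lists stand beside 7.26% of all genes for the EGFP low gate and 15.9% for the EGFP high gate.

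Enzymes that make superoxide or peroxide were counted as well. Of 16 tested, 8 had higher and 8 had lower values in EGFP high than in EGFP low cells of wild type. By limma 2 were called higher there and 0 lower, beside 2.44% of all genes called. These were Noxa1 (0.80, SE 0.17, limma adjusted p = 0.0223) and Noxo1 (0.81, SE 0.18, limma adjusted p = 0.0278), the activator and organizer subunits of the NADPH oxidase Nox1. In the knockout they also rose, by 0.85 and 0.61 (limma adjusted p = 0.0059 and 0.0396), while Maoa and Xdh fell there. Of the 16 genes 2 were called higher and 2 lower in the knockout, beside 10.9% of all genes called and 6.44% called lower. Cyba, the membrane subunit shared by several NADPH oxidases, had the smallest p of the list between genotypes in EGFP low cells, at 0.82 (SE 0.30, limma adjusted p = 0.613), with levels of 6.83 ± 0.49 in Atg7KO-Low and 6.01 ± 0.61 in WT-Low cells (SD, n = 4 each).

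**Figure D3:**
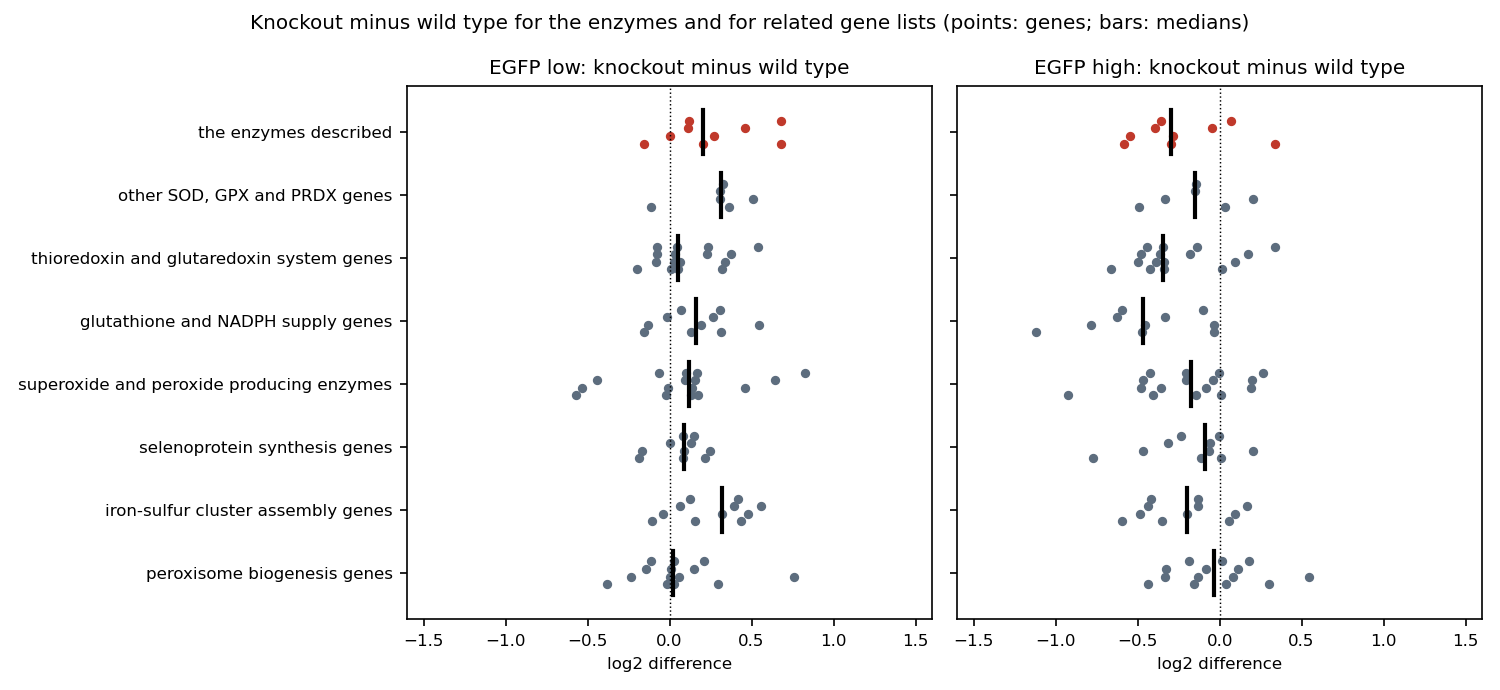
Log2 difference, knockout minus wild type (x axis), of each tested gene of the enzymes and of 7 related gene lists (y axis), in EGFP low cells on the left and EGFP high cells on the right; points are genes and bars are medians. The enzymes' median is 0.20 on the left and -0.30 on the right, and that of the glutathione and NADPH supply genes is 0.16 and -0.47.

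The values of Glrx5 under all settings are shown because it was the one called gene of those listed. With the main setting, none of the superoxide and peroxide removing enzymes proper was called in any comparison. The knockout difference in EGFP low cells stayed between 0.59 and 0.72 and was called under none of the 25 other settings. The difference between the gates of the knockout ran from -0.86 with median centring to -0.52 with the array SD as a covariate.

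**Figure D4:**
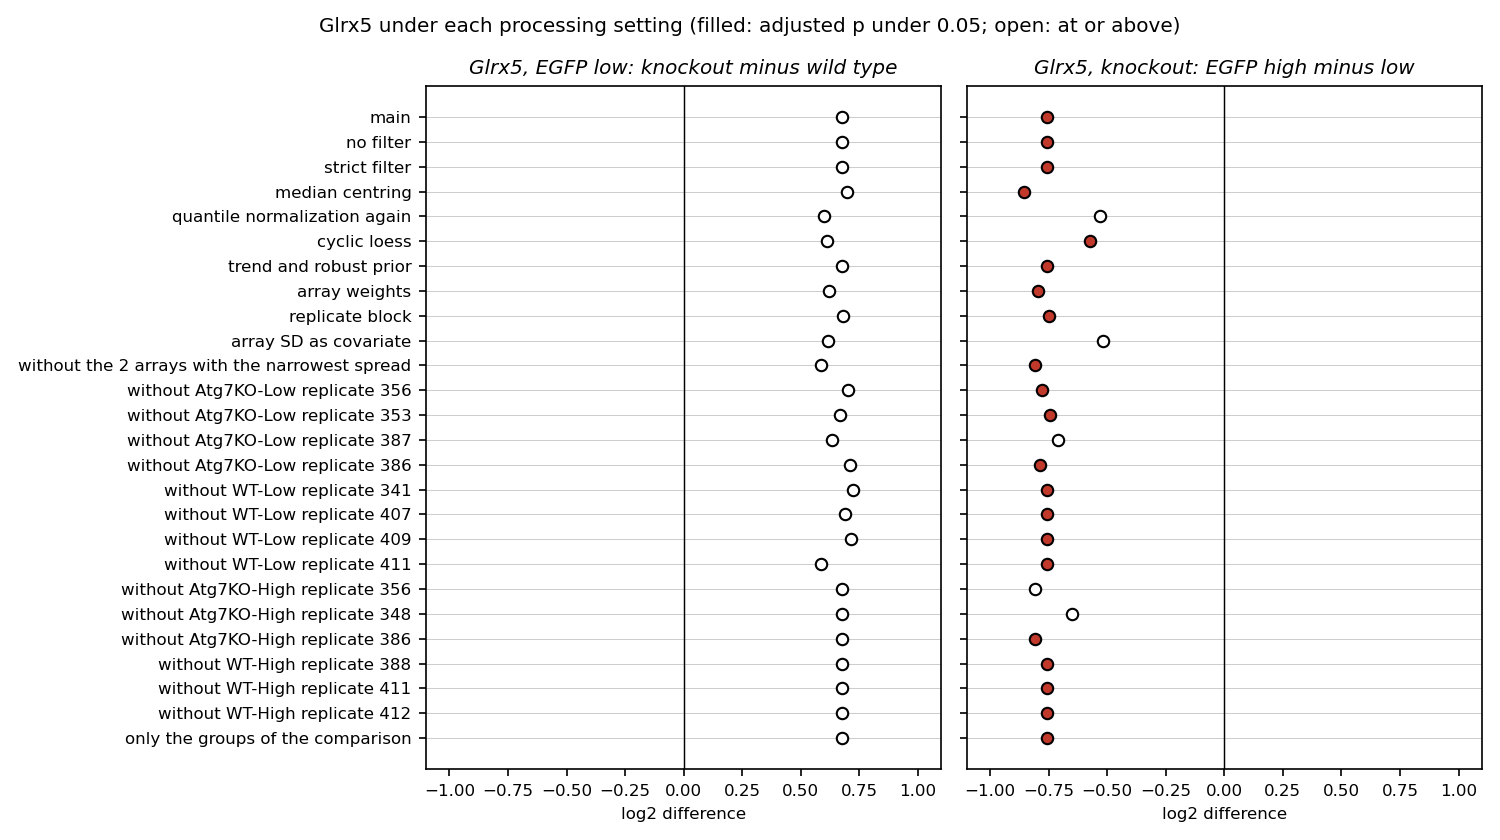
Log2 difference of Glrx5 (x axis) with the main setting and each of 25 other settings (y axis), for knockout minus wild type in EGFP low cells on the left and EGFP high minus low in the knockout on the right; filled points have adjusted p under 0.05. All points on the left are open and above 0, and all on the right are below 0, with 5 open.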

How the data were processed

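Per the submitters' processing notes, the authors used Expression Console with RMA, and the deposited values are log2 levels of probe sets. RMA corrects background, quantile normalizes and summarises probes, which can narrow large differences. Software versions and probe set definitions were not given in the sources used here. Of 25429 probe sets 24675 had 1 gene symbol in the platform annotation, 0 had several, and 754 without one were left out. Values ran from 1.65 to 13.8. Arrays give no read depth, and their number limits the precision.

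A gene was tested if at least 3 arrays had it at the 40th percentile of their values or higher, which left 15873. Group means were fitted over the 14 arrays with limma 3.58.1 (lmFit, eBayes) in R 4.3.3 (residual df 10, prior df 4.54). P-values are two-sided and Benjamini-Hochberg adjusted over all tested genes, with 0.05 as the limit for a call. The 95% intervals and SEs come from this fit, which was tested on simulated data. P-values rest on the spread between arrays within groups, taken as independent, though arrays of different gates may share a mouse.

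The 10 genes and the related lists were chosen with earlier results of these data known, and no set was tested. All 10 genes are named. Related genes are named by the 2 smallest p-values of a list in a genotype comparison or between the gates of wild type, and any outside that rule were chosen after their values were seen. Title numbers found in both gates may name mice, which the labels do not say. Deviations of same-numbered arrays correlated at 0.11, 0.18 and -0.04, so they were not treated as pairs. No arrays held identical values. Alternatives changed the filter, normalization, prior, array weights, groups in the fit, a random block, the array SD as covariate and the arrays included.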

Additional observations from a re-analysis of the deposited data

How the results depend on the processing

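Of 1106 recomputed values of single enzymes under 25 settings, 1052 kept their direction and their side of the threshold, 43 changed sign with none of these called, 5 were no longer called and 6 became called. The strict filter left out Gpx2 and Gpx4. The cause of the changes was not tested. Between the gates of the knockout the number of called enzymes, 1, was 2 with the strict filter, median centring or the replicate block, 0 with quantile normalization again or the array SD as a covariate, and 0 to 2 with 1 array left out. Sod2 was called beside Glrx5 where it was 2. With the replicate block, the title number as a random block with a correlation of 0.07, Sod2 had a limma adjusted p of 0.0445, and 4 of 6 arrays correlated best with their own number. It changed no other call among the enzymes.

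The enzymes' median for the knockout of EGFP high cells was 0.087 with the array SD as a covariate and -0.39 to -0.12 with 1 array left out. Array SDs did not overlap by genotype among EGFP high samples, so that covariate cannot tell spread and knockout apart there. The enzymes' median of the difference between gates was -0.075 with that covariate, -0.24 without the 2 narrowest arrays and -0.59 to -0.32 with 1 array left out.

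Signs turned for knockout minus wild type in EGFP high cells with the array SD as a covariate for Cat (0.31), Gpx1 (0.14), Gpx2 (0.57) and Prdx3 (0.36), with median centring for Prdx4 (-0.031) and with cyclic loess for Gpx1 (0.11). In EGFP low cells they turned for Sod1 with cyclic loess (-0.0098), for Cat and Gpx2 with array weights (-0.15 and -0.049) and without the 2 narrowest arrays (-0.23 and -0.25), and for Cat with the array SD (-0.0025). Between the gates of wild type they turned for Gpx1 with median centring (0.023), quantile normalization again (0.018) and the replicate block (0.0066). For Gpx2 they turned with cyclic loess (-0.0086), array weights (-0.047), the array SD (-0.33) and without the 2 narrowest arrays (-0.45). In the knockout they turned for Sod1 with cyclic loess (0.058) and with the array SD for Gpx2 (0.22) and Prdx3 (0.11). For the difference between gates they turned with the array SD for Sod1 (-0.075), Cat (0.31), Gpx2 (0.55) and Prdx3 (0.049), and for Gpx2 without the 2 narrowest arrays (0.040).

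With 1 array left out, EGFP low knockout differences ran from -0.23 to 0.28 for Cat, -0.25 to 0.49 for Gpx2 and -0.059 to 0.076 for Gpx4, and that of Prdx4 in EGFP high cells from -0.12 to 0.23. Gate differences ran from -0.072 to 0.053 for Gpx1 and -0.45 to 0.29 for Gpx2 in wild type, and -0.37 to 0.20 for Gpx4 in the knockout.

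Counts over all genes ranged from 1 to 703 for the knockout of EGFP high cells (main 2, highest with array weights), 0 to 2 for EGFP low cells (main 1), 103 to 1201 between gates of wild type (highest with array weights, lowest without WT-High-412), 495 to 2122 in the knockout (main 1734) and 1 to 4 for the difference between gates (main 1).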

Other observations

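Single genes of the related lists were called between the gates of the knockout. They were 1 of 6 tested other superoxide dismutase, glutathione peroxidase and peroxiredoxin genes, 1 of 10 selenoprotein synthesis and 1 of 14 peroxisome biogenesis genes. All were lower in EGFP high cells, beside 10.9% of all genes called and 6.44% called lower. In wild type 1 of the 14 peroxisome genes was called, beside 2.44% of all genes. Gpx3, a secreted glutathione peroxidase, fell by 1.35 on the log2 scale in EGFP high cells (SE 0.38, limma adjusted p = 0.0329), and in wild type its difference was -1.23 (limma adjusted p = 0.110). Selenop, a selenium transport protein, fell in the knockout by 0.99 (limma adjusted p = 0.0309). Pex7, the import receptor for a class of peroxisomal matrix proteins, fell in EGFP high cells of both genotypes, by 0.76 in wild type and 0.80 in the knockout (limma adjusted p = 0.0317 and 0.00894).

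Values of single lists without a result above were as follows. Of 14 Lgr5 stem cell markers 12 were called higher in EGFP high cells of wild type and 11 in those of the knockout, with medians of 1.24 and 1.20. Of all genes 2.44% and 10.9% were called in these comparisons. The mean of 13 enterocyte markers was 9.16 to 9.75 in WT-Low, 9.10 to 10.0 in Atg7KO-Low, 8.24 to 9.40 in WT-High and 7.99 to 8.31 in Atg7KO-High samples.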
